A study of Drosophila melanogaster with 21 samples.

Results

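Marker genes of *Drosophila* neuroblasts, *inscuteable* (*insc*), *deadpan* (*dpn*) and *miranda* (*mira*), and of glia, *reversed polarity* (*repo*), *moody* and *nervana 2* (*nrv2*), were followed over 21 arrays of larval mosaic eye-antennal discs. They were chosen by name, as the probe sets whose array annotation gives one of these symbols alone. All 6 were found, each with 1 probe set, among 11982 genes that the annotation names alone and 18769 probe sets tested. The discs fell into 7 genotype groups of 3 arrays. The control discs carried *FRT82B* clones with no other change. The *ab* discs carried clones that overexpressed Abrupt, a BTB-zinc finger transcription factor, and the *scrib-*+*ab* discs carried clones that were also mutant for the cell polarity gene *scribble*. The other 4 groups had *scrib-* clones with activated Ras (RasV12, *RasACT*) or activated Notch (NotchICD, *NACT*), each without and with *bskDN*, a dominant negative form of Basket, the *Drosophila* JNK. All groups shared the genetic background w1118 and came from larvae of the last instar, dissected at day 5 of development after the eggs were laid. The submitters described the discs of the 5 *scrib-* groups as tumours. In the study's mosaic method, flipase under the *eyeless* promoter made GFP-marked clones in otherwise wild type discs, so the RNA of each sample came from mutant and wild type cells together.

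Neuroblasts are the stem cells of the insect central nervous system. They divide asymmetrically: Inscuteable sits at the apical cortex and orients the spindle, Miranda carries fate determinants to the basal daughter, and Deadpan is a bHLH repressor of the Hes family that keeps the stem cell fate and responds to Notch. Glia depend on Repo, a homeodomain protein made by nearly all lateral glia, while Moody is a G protein-coupled receptor of the glia that form the blood-brain barrier and Nervana 2 is a beta subunit of the Na,K-ATPase that is found at septate junctions. The larval eye disc also holds glia, which enter it along the optic stalk, but no neuroblasts. Insc, Dpn and Nrv2 are known outside these lineages too, in epithelia, sensory precursors or muscle, so their genes do not mark a single cell type in a disc.

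Values were GCRMA signals on the log2 scale, in which the lowest value of any tested probe set, the floor, was 2.17 and the highest 16.17. On each array 35.2% to 43.1% of the tested probe sets lay at the floor. They are included in every share, median and range percentile over all probe sets given below, so these are not a yardstick of detected genes alone. A difference was called where limma's moderated test gave a Benjamini-Hochberg adjusted p under 0.05 over all 18769 probe sets and the groups differed by more than 1 on the log2 scale. Adjusted p-values and 95% intervals below come from these fits. The p-values set a difference against the spread between RNA preparations, 3 a group, pooled over all groups in the fit. For the Ras and Notch tumours against the control this pool held the *ab* and *scrib-*+*ab* arrays too. The *bsk* probe set stood at 15.79 in both *bskDN* groups and at 10.88 to 11.90 in the others. The 6 *ab* and *scrib-*+*ab* arrays stood apart technically: their poly-A spike controls averaged 2.20 to 2.23, against 6.31 to 8.94 on the other 15 arrays, and the 5′ end of *Gapdh* was lower than its 3′ end by 2.20 to 3.69, against 0.29 to 0.67 elsewhere. Fewer discs were pooled for these groups than for the control, so genotype, RNA handling and disc number cannot be told apart in their comparisons with the control. Replicate 2 of *scrib-*+*ab* also had high values of some nervous system genes. They were counted on this array and in the lists below only, with no share over all probe sets. Of 40 genes in the lists of neuroblast factors, glial specification, glial subtypes and transport, neurons, and optic lobe and brain, 6 were more than 1 above both other *scrib-*+*ab* arrays, and 7 had their highest value of all 21 arrays there. The temporal factor *cas* was at 6.68 on that array and at 2.17 and 2.18 on the other *scrib-*+*ab* arrays, *pros* at 8.26 against 4.26 and 3.75, the astrocyte gene *alrm* at 5.94 against 3.79 and 2.18, and the neuronal gene *fne* at 7.16 against 3.62 on both.

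The listed neuroblast genes gave a mixed picture. Of 14 listed neuroblast transcription factors, 5 were under 5 on the log2 scale on every array, 5 were above 5 on every array and 4 lay on both sides, a level picked for this tally after the values were seen. The low ones were the Snail-family gene *wor*, at 2.25 to 4.01, the proneural genes *ase*, at 2.43 to 4.58, and *l(1)sc*, at 2.17 to 2.24, *sna*, at 2.17 to 3.83, and *erm*, a factor of intermediate progenitors, at 2.17 to 2.98. The high ones were *grh* at 9.96 to 12.63, *esg*, also of the Snail family, at 10.38 to 11.99, *D* at 7.92 to 10.76, *SoxN* at 6.0 to 8.92 and *svp* at 6.47 to 10.98, of which *grh* and *esg* are known in epithelia and *svp* in photoreceptors. Those on both sides were *nerfin-1* at 4.84 to 10.41, *klu* at 4.42 to 9.36, *pros* at 3.43 to 8.26 and *cas* at 2.17 to 6.68. Of 7 listed optic lobe and brain genes, *hbn*, *bsh*, *tll* and *scro* were under 5 on every array and *ey*, an eye gene too, *Imp* and *Syp* above it. These markers do not settle whether the discs held neuroblasts, and *insc*, *dpn* and *mira* are treated here as 3 genes and not as a measure of that cell type.

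The glial label was borne out in part. *repo*, which few other cells express, was between 5.56 and 9.42 on all arrays. The embryonic glial determinants were not present with it: *gcm2* was at the floor on every array and *gcm* did not exceed 3.15, except for a value of 6.44 in control replicate 1. The glial transporter *Gat* did not exceed 2.34, and *wrapper*, of wrapping and midline glia, did not exceed 3.78, except for 4.40 in *scrib-*+*ab* replicate 2. These were the 2 of 9 listed glial subtype and transport genes under 5 on every array, *bnb* and *Indy* were above 5 on every array, and 5 lay on both sides. Glial genes at middle levels were *htl*, the FGF receptor of disc glia, at 2.82 to 7.0, *Gs2*, glutamine synthetase, at 2.93 to 9.61, and *Mdr65*, an efflux pump of the barrier, at 3.29 to 6.58. The septate junction genes *Gli*, *Cont*, *Lac* and *sinu*, which disc epithelium also uses, were all above 11 on every array.

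**Figure D1:**
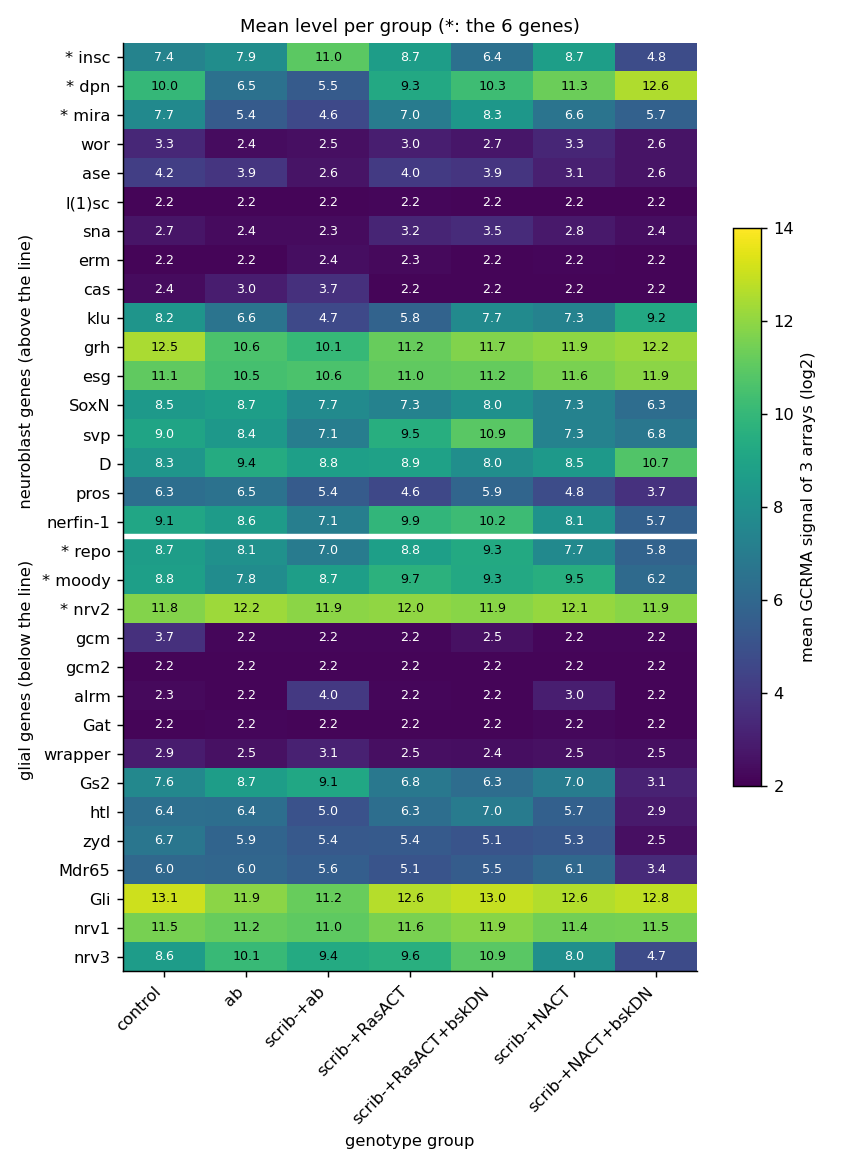
Mean GCRMA signal (log2, colour and number) of the genes, as rows, in the 7 genotype groups, as columns; an asterisk marks the 6 genes followed. *wor* and *l(1)sc* stay dark and *grh* and *esg* bright in all groups while *insc* and *dpn* vary widely, and *repo*, *moody*, *Gs2*, *htl*, *zyd* and *Mdr65* are darkest in *scrib-*+*NACT*+*bskDN*.

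*insc* was highest in *scrib-*+*ab* tumours. Its signals there were 11.11, 10.75 and 11.08 in replicates 1 to 3. The *scrib-*+*NACT* arrays had 7.99, 9.07 and 9.18, and the *scrib-*+*RasACT* arrays 8.52, 8.47 and 9.07, so that these tumours overlapped each other. The *ab* discs had 8.04, 7.56 and 7.98 and the control 6.79, 7.29 and 8.01, which also overlapped. The lowest values were those of both JNK-blocked tumours, at 6.55, 6.41 and 6.29 with *RasACT* and at 4.95, 4.58 and 4.79 with *NACT*. The group means spanned 6.21 (74.1-fold), more than in 99.5% of the probe sets tested, and the control and *scrib-*+*NACT* groups were the most spread, with SDs of 0.62 and 0.66.

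*dpn* ran in nearly the opposite order, with Notch-activated tumours at the top and Abrupt-expressing discs at the bottom. With *NACT* and *bskDN* it reached 12.69, 12.39 and 12.67, and with *NACT* alone 11.26, 11.25 and 11.39. The *scrib-*+*RasACT*+*bskDN* arrays, at 10.39, 10.05 and 10.38, overlapped the control arrays, at 10.15, 9.79 and 10.11. No other neighbouring groups in this order overlapped. *scrib-*+*RasACT* followed with 9.20, 9.08 and 9.47, then *ab* with 6.49, 6.29 and 6.71, and *scrib-*+*ab* with 5.13, 6.08 and 5.18. The means spanned 7.12 (139-fold), wider than 99.8% of probe sets, and over the 7 group means *insc* and *dpn* correlated at r = -0.74.

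*mira*, whose product is the cargo adaptor at the basal cortex, varied less. It was highest in *scrib-*+*RasACT*+*bskDN*, at 8.34, 8.21 and 8.49, and next in the control, at 7.62, 8.0 and 7.51. The *scrib-*+*RasACT* values of 6.50, 7.40 and 7.09 overlapped the *scrib-*+*NACT* values of 6.43, 6.54 and 6.87. The 3 lowest groups overlapped in turn: *scrib-*+*NACT*+*bskDN* at 5.88, 5.49 and 5.82, *ab* at 5.66, 4.71 and 5.93, and *scrib-*+*ab* at 4.51, 5.46 and 3.95. The means spanned 3.70 (13-fold). *mira* followed *dpn* at r = 0.52 and *insc* at r = -0.40 over the 7 group means, so the 3 neuroblast genes did not share a pattern.

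*repo* and *moody* were alike in one respect, a low level in *scrib-*+*NACT*+*bskDN*. *repo* was at 5.56, 5.58 and 6.31 there. It was at 9.15, 9.36 and 9.42 in *scrib-*+*RasACT*+*bskDN*, and at 8.88, 8.90 and 8.60 in *scrib-*+*RasACT*, which overlapped the control at 8.88, 8.55 and 8.58. The *ab* discs had 8.39, 7.89 and 7.90 and *scrib-*+*NACT* 7.83, 7.81 and 7.46. The *scrib-*+*ab* arrays were widely spread at 6.19, 7.78 and 6.94, the highest value being replicate 2. They overlapped both *scrib-*+*NACT* and *scrib-*+*NACT*+*bskDN*.

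*moody*, the barrier receptor, had 6.22, 6.03 and 6.20 in *scrib-*+*NACT*+*bskDN*, below every other array. Its highest values were in the Ras and Notch tumours without *bskDN*, 9.47, 9.63 and 10.04 with *RasACT* and 9.61, 9.56 and 9.46 with *NACT*. *scrib-*+*RasACT*+*bskDN* had 9.36, 9.32 and 9.08. The control, at 8.62, 8.79 and 8.86, overlapped the *scrib-*+*ab* tumours, also without *bskDN*, at 8.92, 8.92 and 8.40. The *ab* discs were lower at 7.91, 7.56 and 7.98. The group means of *repo* spanned 3.50 (11.3-fold) and those of *moody* 3.56 (11.8-fold), and the pair correlated at r = 0.75 over the 7 groups.

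*nrv2* hardly moved. Its 21 values lay between 11.63 and 12.34, and the group means spanned 0.48 (1.39-fold). That range was wider than in 49.96% of probe sets, those at the floor included. The *ab* group was highest, at 12.16, 12.23 and 12.34, and the control lowest, at 11.74, 11.75 and 11.80, but every neighbouring pair in the order overlapped. The related beta subunits of the listed Na,K-ATPase genes differed from it. *nrv1*, the broadly expressed one, had group means of 11.02 to 11.88, and *nrv3*, which is neuronal, went from 4.73 in *scrib-*+*NACT*+*bskDN* to 10.92 in *scrib-*+*RasACT*+*bskDN*. The correlations of *nrv2* with *repo* (r = 0.02) and *moody* (r = 0.10) over the 7 groups were near 0.

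**Figure D2:**
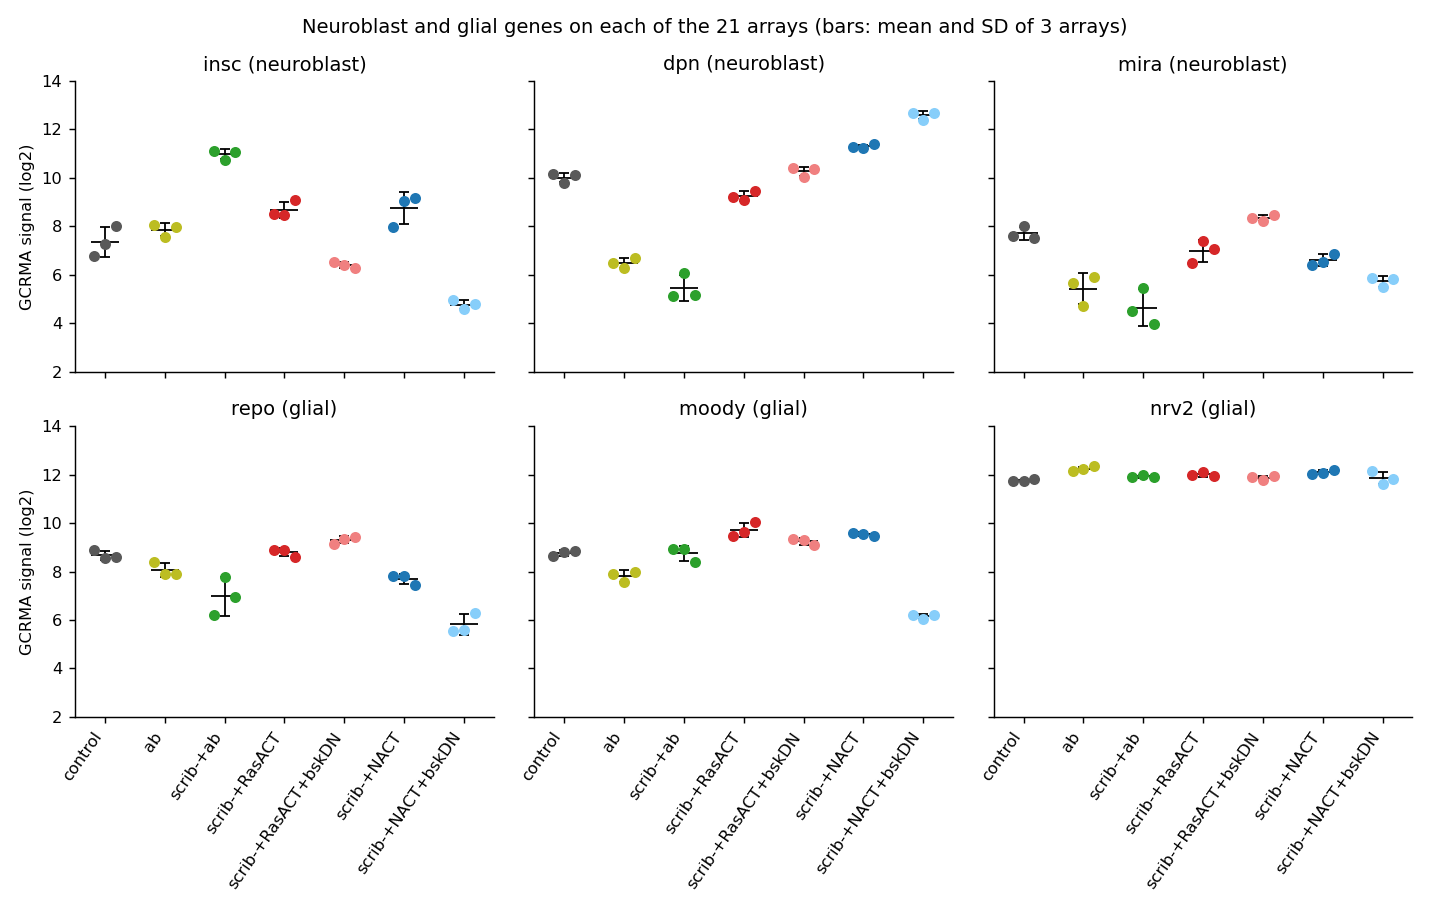
GCRMA signal (log2, y axis) of the 6 genes on each array, as points, with the mean and SD of each group of 3 as black bars, over the 7 genotype groups. *insc* peaks in *scrib-*+*ab* (10.75 to 11.11), *dpn* in *scrib-*+*NACT*+*bskDN* (12.39 to 12.69), *moody* is lowest there (6.03 to 6.22), and *nrv2* is level.

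*dpn* and *mira* were lower in discs overexpressing *ab* alone than in the control. In this comparison genotype, RNA handling and disc number cannot be told apart. *dpn* was 11.5-fold below the control (log2 -3.52, SE 0.28, adjusted p = 0.000223 by limma) and *mira* 4.85-fold (log2 -2.28, SE 0.47, adjusted p = 0.0125). *insc* differed by 0.50 (interval -0.28 to 1.27, adjusted p = 0.403), within the spread of the arrays. Of the glial genes, *moody* was 0.94 lower (adjusted p = 0.00978) and *nrv2* 0.48 higher (adjusted p = 0.000716), both past the p threshold but under the fold threshold, and *repo* was 0.61 lower (interval -1.57 to 0.35, adjusted p = 0.409). Without *ab* replicate 3 or control replicate 1 the *moody* difference passed 1, reaching -1.03. So 2 of 6 genes were called, both lower, where 14.5% of all probe sets were called, 8.68% higher and 5.87% lower. The median over the 6 was -0.78, beside 0.00 over all probe sets tested, as in every comparison.

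Other cell types' genes moved in the same comparison. In the haemocyte list 3 of 7 genes rose and none fell, with array means of 7.69 to 8.51 in *ab* against 5.86 to 6.88 in the control, and all 3 muscle genes rose (medians of 1.67 and 2.37). *NimC1* was near the floor in the control (2.22) and at 6.33 in *ab*, while *Hml* was 0.99 and *srp* 0.29 lower in *ab*, neither called. None of 8 neuronal genes was called by limma (1 had an unadjusted p under 0.05). The part of other cells in the differences of *dpn* and *mira* was not tested. RNA from whole discs does not tell fewer cells of a type from less RNA in each cell.

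In *scrib-*+*ab* tumours all 3 neuroblast genes differed from the control, but in opposite directions. *insc* was 12.3-fold higher (log2 3.62, SE 0.32, adjusted p = 0.000271). *dpn* was 23.4-fold lower (log2 -4.55, SE 0.28, adjusted p = 6.29e-05), the widest difference of any of the 6 genes in the 6 comparisons with the control. *mira* was 8.38-fold lower (log2 -3.07, SE 0.47, adjusted p = 0.00301). Among the glial genes *repo* was 3.25-fold lower (log2 -1.70, SE 0.40, adjusted p = 0.0186). *moody* was at the control level, with a difference of -0.01 and an interval of -0.46 to 0.43, and *nrv2* was 0.16 higher (adjusted p = 0.0539). The 4 calls, 1 higher and 3 lower, compare with 17.2% of all probe sets, 8.72% higher and 8.46% lower, and the median over the 6 was -0.86.

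The call for *repo* depended on single arrays. Its adjusted p was between 0.0512 and 0.0662 when control replicate 1, 2 or 3 or *scrib-*+*ab* replicate 3 was left out, and 0.0635 with the 6 arrays fitted alone. Without *scrib-*+*ab* replicate 2, the array with high nervous system genes, *repo* was 2.11 lower (adjusted p = 0.00378), *mira* 3.48 lower, *dpn* 4.86 lower and *insc* 3.73 higher, so that array drew *dpn*, *mira*, *repo* and *insc* towards the control.

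Muscle and haemocyte genes were again higher in *scrib-*+*ab*, beside *insc*. All 3 muscle genes and 4 of 7 haemocyte genes rose, with muscle means per array of 9.09 to 9.69 against 4.68 to 6.27 in the control and list medians of 3.86 and 2.47. Of the other haemocyte genes *He* was 1.81 higher, *Hml* 0.61 lower and *srp* 1.65 lower, none of them called. Over the 7 groups *insc* correlated at r = 0.92 with the mean of the muscle list and at r = 0.92 with that of the haemocyte list, and at r = 0.12 with that of the neuronal list. These points share the discs and their RNA, and the part of muscle or haemocyte RNA in the *insc* signal was not tested. Of the 8 apical and spindle genes that act with Inscuteable, none rose and 4 fell, beside 8.46% of all probe sets called lower. Among the 4 were *baz*, the Par3 protein that anchors Inscuteable, at 7.84 against 9.0, and *loco*, at 9.41 against 10.54. The study lists another probe set of *mud*, also among the 4, as higher in *scrib-*+*ab*. The partner *pins* was at 9.78 against 10.08 and was not called.

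Only *insc* separated *scrib-*+*ab* tumours from *ab* alone by the rule for calls, a comparison that asks what loss of *scrib* adds to Abrupt. It was 8.69-fold higher (log2 3.12, SE 0.32, adjusted p = 0.00298), and no array of one group reached the other. *dpn* was 1.03 lower (adjusted p = 0.0747) and *repo* 1.09 lower (adjusted p = 0.176), *mira* 0.79 lower (adjusted p = 0.475). *moody* was 0.93 higher (adjusted p = 0.0264) and *nrv2* 0.31 lower (adjusted p = 0.0127), both under the fold threshold. The background was 4.28% of probe sets called, 1.82% higher and 2.46% lower, and the median over the 6 genes was -0.55. Without *scrib-*+*ab* replicate 2, *dpn* (-1.34, adjusted p = 0.0115) and *repo* (-1.5, adjusted p = 0.0378) were called too. *moody* was called without *ab* replicate 3 or *scrib-*+*ab* replicate 3, at 1.11 at most. One muscle gene and 1 haemocyte gene rose in this comparison, and 1 of 8 neuronal genes fell.

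The Ras and Notch tumours with active JNK both had more *insc* than the control and differed in *dpn*. In *scrib-*+*RasACT*, *insc* was 2.5-fold higher (log2 1.32, SE 0.32, adjusted p = 0.00698) and was the only gene called, where 6.43% of probe sets were, 2.75% higher and 3.68% lower. The median over the 6 was 0.18. *dpn* was 0.76 lower (adjusted p = 0.017) and *moody* 0.95 higher (adjusted p = 0.000619), both under the fold threshold, while *mira* (-0.71, adjusted p = 0.225), *repo* (0.12) and *nrv2* (0.24, adjusted p = 0.103) did not pass. *moody* was called without control replicate 3 or *scrib-*+*RasACT* replicate 1, reaching 1.08. The *insc* call was lost (adjusted p = 0.134) when the 6 arrays were fitted alone.

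In *scrib-*+*NACT*, *insc* was 2.6-fold higher (log2 1.38, SE 0.32, adjusted p = 0.00934), although its lowest array, at 7.99, lay within the control range. That call was lost when the 6 arrays were fitted alone (adjusted p = 0.24) and without *scrib-*+*NACT* replicate 2 or A (adjusted p = 0.0542 and 0.0586). *dpn*, a known target of Notch in neuroblasts, was 2.44-fold higher (log2 1.29, SE 0.21, adjusted p = 0.00078). Both calls were upward, beside 4.03% of probe sets called, 1.65% higher and 2.38% lower, and the median over the 6 was 0.56. *mira* was 1.10 lower (adjusted p = 0.0674) and *repo* 0.97 lower (adjusted p = 0.0582). In limma fits with array quality weights (adjusted p = 0.0012), low values left out (0.0218) or values under 5 raised to 5 (0.0127), *mira* was called lower. *moody* was 0.78 higher (adjusted p = 0.00488) and *nrv2* 0.34 higher (adjusted p = 0.0361), both under the fold threshold. In the muscle list 2 of 3 genes rose with *RasACT* and 1 of 3 with *NACT*, and in the haemocyte list 1 of 7 rose in each. In the neuronal list 1 of 8 genes fell with *RasACT* and 3 of 8 with *NACT*.

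With JNK blocked the tumours parted. In *scrib-*+*RasACT*+*bskDN* none of the 6 genes was called by limma, and 2 had an unadjusted p under 0.05: *insc*, 0.95 lower (adjusted p = 0.0779), and *moody*, 0.49 higher (adjusted p = 0.0771). *dpn* (0.26), *mira* (0.64), *repo* (0.64) and *nrv2* (0.11) were within 1 of the control. With array quality weights *insc* was called (-1.13, adjusted p = 0.00536), as it was without control replicate 1 (adjusted p = 0.0314). Across the arrays 3.38% of probe sets were called, 1.87% higher and 1.51% lower, and the median over the 6 genes was 0.38. In the neuronal list 3 of 8 genes rose and none fell.

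In *scrib-*+*NACT*+*bskDN* 5 of the 6 genes were called, 1 higher and 4 lower, where 5.71% of probe sets were, 1.58% higher and 4.13% lower. The median over the 6 was -2.29. *dpn* was 5.93-fold higher than in the control (log2 2.57, SE 0.21, adjusted p = 6.63e-07). *insc* was 6.05-fold lower (log2 -2.60, SE 0.32, adjusted p = 3.04e-05) and *mira* 3.95-fold lower (log2 -1.98, SE 0.36, adjusted p = 0.00103). The glial genes *repo* and *moody* were 7.25-fold and 6.1-fold lower (log2 -2.86 and -2.61, SE 0.31 and 0.16, adjusted p = 9.45e-06 and 4.05e-08). *nrv2* differed by 0.10 (interval -0.11 to 0.31). These 5 calls held in every alternative run, including each array left out in turn.

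Genes of several other cell types fell beside *repo* and *moody* in *scrib-*+*NACT*+*bskDN*. In the neuronal list 6 of 8 genes were lower and none higher, such as *futsch*, a microtubule protein of axons, at 4.44 against 9.13, and the array means were 5.08 to 5.18 against 6.81 to 7.27. The medians of the neuronal, haemocyte, muscle and glial subtype lists were -1.53, -3.05, -2.94 and -0.66. In the haemocyte list 4 of 7 were lower (array means of 3.97 to 4.25 against 5.86 to 6.88), in the muscle list 2 of 3 (2.68 to 3.16 against 4.68 to 6.27), and in the list of glial subtype and transport genes 3 of 9. Those 3 were *Gs2* at 3.14 against 7.58, *htl* at 2.86 against 6.40 and *zyd*, a potassium-dependent exchanger of cortex glia, at 2.48 against 6.69. *NimC1* was near the floor in both groups. In the list of septate junction and barrier genes 1 of 11 was lower, the barrier efflux pump *Mdr65*, and no other was called. The part that fewer glia, neurons, blood cells or muscle fragments had in these differences was not tested.

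**Figure D3:**
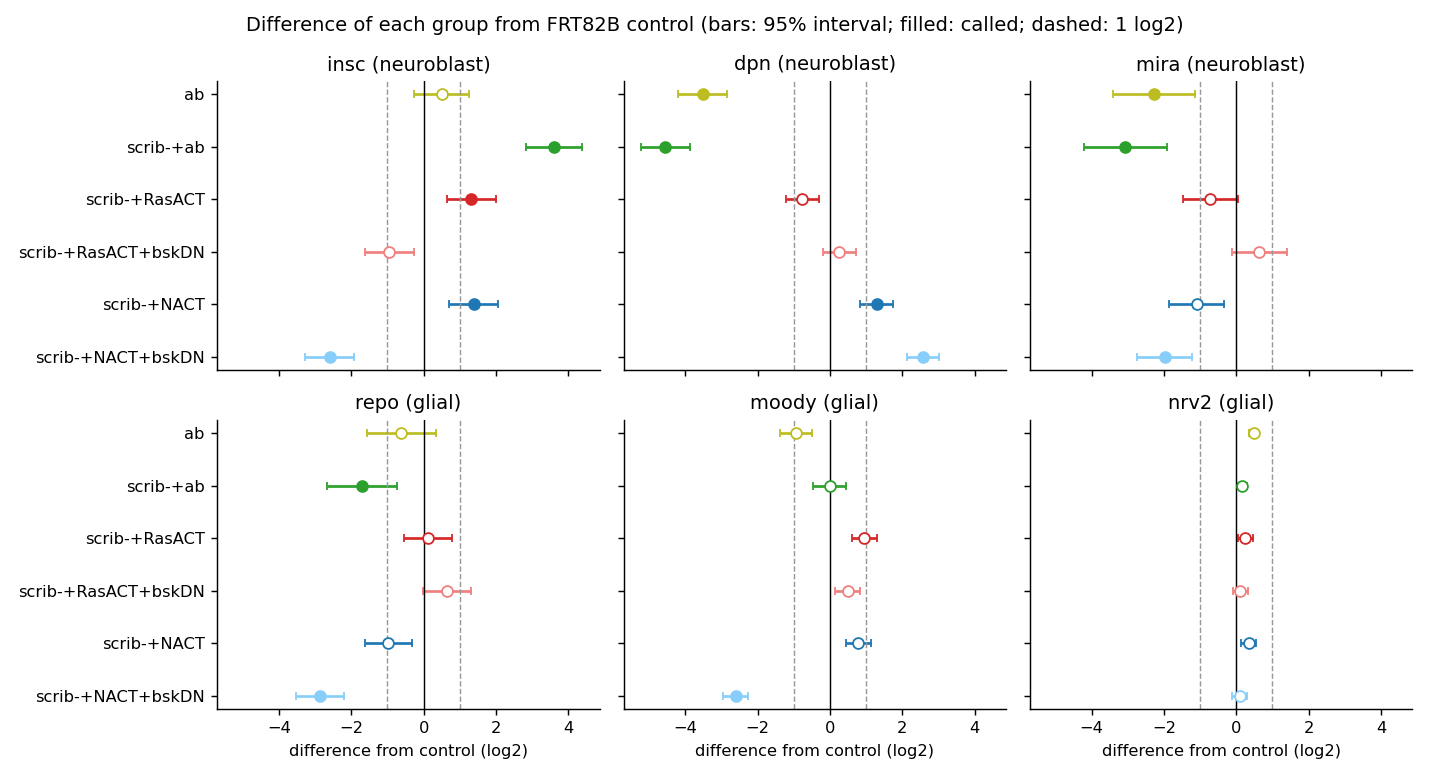
Difference of each group from the control (log2, x axis) for the 6 genes, with 95% intervals; filled points were called, open points were not, and dashed lines mark 1 in each direction. *insc* and *dpn* lie on opposite sides of 0 in *scrib-*+*ab* (3.62 and -4.55) and in *scrib-*+*NACT*+*bskDN* (-2.60 and 2.57), and *nrv2* stays within 0.48 of the control.

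**Figure D4:**
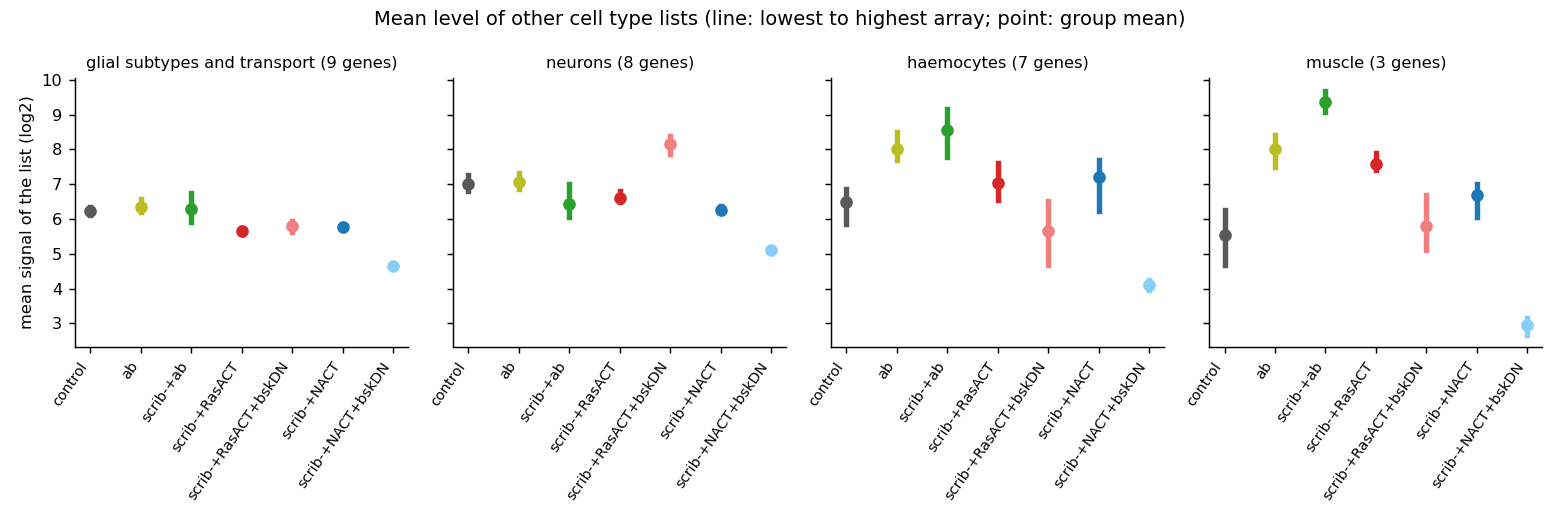
Mean signal (log2, y axis) of the genes in 4 lists of other cell types in the 7 groups; points are group means and lines run from the lowest to the highest array. All 4 lists are lowest in *scrib-*+*NACT*+*bskDN*, and the haemocyte and muscle lists are highest in *scrib-*+*ab*.

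The effect of blocking JNK was read from each tumour without *bskDN* minus the same tumour with it. In Ras tumours the 3 neuroblast genes were called and no glial gene was. *insc* was 4.83-fold higher with JNK active (log2 2.27, SE 0.31, adjusted p = 0.00216), *dpn* 2.03-fold lower (log2 -1.02, SE 0.13, adjusted p = 0.00183) and *mira* 2.55-fold lower (log2 -1.35, SE 0.23, adjusted p = 0.00654). *dpn* was close to the fold threshold and went under it, to -0.94 at the least, without *scrib-*+*RasACT* replicate 1 or 2 or *scrib-*+*RasACT*+*bskDN* replicate 1 or 3. With the 6 arrays of these groups fitted alone the calls for *dpn* and *mira* were lost (adjusted p = 0.0527 and 0.0964). *repo* was 0.52 lower (adjusted p = 0.196), *moody* 0.46 higher (adjusted p = 0.0842) and *nrv2* 0.13 higher (adjusted p = 0.643). The background was 4.22% of probe sets, 1.78% higher and 2.44% lower, and the median over the 6 was -0.19. Neuronal genes fell with *mira* and *dpn*, 5 of 8 being lower with JNK active, and 1 muscle gene and 1 haemocyte gene rose with *insc*. None of 3 fat body genes was called by limma (3 had an unadjusted p under 0.05), and the list median was -5.06.

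In Notch tumours 4 of the 6 genes were called, 3 higher and 1 lower, where 5.37% of probe sets were, 3.73% higher and 1.64% lower. The median over the 6 was 1.38. *insc* was 15.7-fold higher with JNK active (log2 3.98, SE 0.31, adjusted p = 7.23e-05) and *moody* 10.5-fold higher (log2 3.39, SE 0.14, adjusted p = 2.61e-06). *repo* was 3.69-fold higher (log2 1.88, SE 0.21, adjusted p = 0.000458). *dpn* was 2.43-fold lower (log2 -1.28, SE 0.13, adjusted p = 0.000343). *mira* was 0.88 higher (adjusted p = 0.0322), under the fold threshold, and *nrv2* 0.24 higher (adjusted p = 0.287). Other cell types moved with them: 5 of 7 haemocyte genes, 3 of 3 muscle genes, 3 of 8 neuronal genes and 3 of 9 glial subtype genes were higher with JNK active, and none of these lists had a gene called lower. In the fat body list 1 of 3 genes was higher and none lower, with a list median of 3.78. The part of these cell types was not tested.

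The difference between these JNK effects, Ras minus Notch, was tested as an interaction. It was called for 4 of 6 genes, all lower, beside 4.51% of probe sets called, 1.22% higher and 3.29% lower, with a median of -1.97. *moody* had the widest difference (log2 -2.93, SE 0.20, adjusted p = 9.58e-05), followed by *repo* (-2.40, SE 0.29, adjusted p = 0.00174) and *mira* (-2.23, SE 0.32, adjusted p = 0.00385). *mira* and *repo* had opposite signs in the 2 tumours. *insc* rose with JNK in both, but less with *RasACT* (-1.71, SE 0.44, adjusted p = 0.0466). That call for *insc* lies at the edge of the threshold: it was lost without any of 10 of the 12 arrays (adjusted p = 0.0744 to 0.114), all but *scrib-*+*RasACT* replicate 3 and *scrib-*+*NACT* replicate 1. For *dpn*, lower with JNK active in both tumours, the effects differed by 0.26 (interval -0.18 to 0.69, adjusted p = 0.645), and for *nrv2* by -0.11 (interval -0.50 to 0.28). In the neuronal list 7 of 8 genes had a lower JNK effect with *RasACT* and none a higher one. So had 4 of 9 glial subtype and transport genes and 2 of 11 septate junction and barrier genes, again with none higher. Of 14 neuroblast factors 4 were lower and 1 higher, and of 7 haemocyte genes 1 was lower and 1 higher. In the fat body list 1 of 3 genes was lower, with a list median of -8.88.

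**Figure D5:**
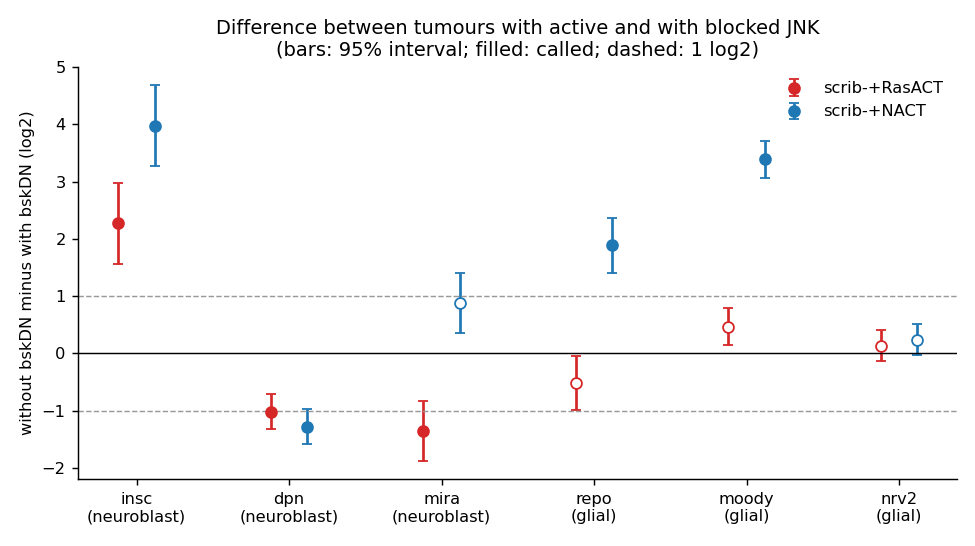
Signal in tumours without *bskDN* minus that in tumours with it (log2, y axis) for each gene, in *scrib-*+*RasACT* (red) and *scrib-*+*NACT* (blue), with 95% intervals; filled points were called. *insc* is above 0 and *dpn* below 0 in both tumours, *mira* and *repo* point in opposite directions, and *moody* is at 3.39 with *NACT* and at 0.46 with *RasACT*.

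Compared directly, the Ras and Notch tumours without *bskDN* differed in *dpn* and *repo*. *dpn* was 4.14-fold lower with *RasACT* than with *NACT* (log2 -2.05, SE 0.13, adjusted p = 0.000136) and *repo* 2.14-fold higher (log2 1.10, SE 0.21, adjusted p = 0.0187). The *repo* call was lost without *scrib-*+*RasACT* replicate 1 or 2 or *scrib-*+*NACT* replicate 2 or A (adjusted p = 0.0501 to 0.0712), and with the 6 arrays fitted alone (0.0752). *insc* (-0.06, interval -0.76 to 0.65), *mira* (0.38, interval -0.14 to 0.91), *moody* (0.17, interval -0.15 to 0.50) and *nrv2* (-0.10, interval -0.37 to 0.18) did not pass. Of all probe sets 1.97% were called, 1.19% higher and 0.778% lower, and the median over the 6 was 0.06. In the JNK-blocked tumours, *repo* stood at 5.56 to 6.31 with *NACT* and 9.15 to 9.42 with *RasACT*, *moody* at 6.03 to 6.22 and 9.08 to 9.36, and *mira* at 5.49 to 5.88 and 8.21 to 8.49. Those ranges were far apart, and the pair of groups entered the tests through the interaction only.

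The 14 listed neuroblast transcription factors were also compared with the control. In *ab* 1 rose and 2 fell, beside 14.5% of all probe sets called, and in *scrib-*+*ab* none rose and 5 fell, beside 17.2%. For *svp*, among those 5, the study lists another probe set as higher in *scrib-*+*ab*. In *scrib-*+*RasACT* none rose and 3 fell, beside 6.43%, and in *scrib-*+*NACT* none rose and 2 fell, beside 4.03%. With *bskDN*, 1 rose and none fell in the Ras tumours, beside 3.38%, and 1 rose and 5 fell in the Notch tumours, beside 5.71%. The medians were -0.34, -0.77, -0.10, -0.37, -0.27 and -0.27 in this order, beside 0.00 over all probe sets. *klu*, a zinc finger gene that acts with *dpn* downstream of Notch, went from 4.66 in *scrib-*+*ab* to 9.22 in *scrib-*+*NACT*+*bskDN*. *grh*, which acts late in neuroblasts and in epithelia, was at 10.06 and 12.22 in the same groups, against 12.49 in the control. Of 8 basal and cortical genes 2 rose and 2 fell in *scrib-*+*ab* against the control. Over all probe sets 8.72% were called higher and 8.46% lower. The lower ones were *pon*, the partner of Numb, at 8.59 against 10.12, and *numb*, the determinant itself, at 10.86 against 12.14. The higher ones were *stau*, the RNA-binding cargo of Miranda, at 10.46 against 8.66, and *dlg1*, at 11.78 against 10.01.

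In the 11 septate junction and barrier genes none rose and 3 fell in both *ab* and *scrib-*+*ab* against the control, beside 5.87% and 8.46% of all probe sets called lower, with medians of -0.28 and -0.43. None was called by limma in *scrib-*+*RasACT* or *scrib-*+*RasACT*+*bskDN* against the control, where 5 and 3 had an unadjusted p under 0.05. Over all probe sets 6.43% and 3.38% were called there, so few of 11 would be called at that share. In *scrib-*+*NACT* 1 rose, beside 1.65% of all probe sets called higher. It was the sugar transporter *Tret1-1*, at 9.62 against 8.35. Signalling partners of Moody moved little in Notch tumours: *Galphai* was at 12.46 without and 12.60 with *bskDN*, *Galphao* at 9.64 and 9.35 and *loco* at 9.85 and 9.57, none of them called, beside the 10.5-fold difference of *moody* itself.

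The genes whose group means most resembled each pattern were sought among 4137 genes (4138 for *nrv2*) with a highest group mean of at least 6 and a range of at least 1. They are a description over 7 points that share the same discs. *insc* was followed by *Strn-Mlck*, a kinase of muscle (r = 0.991), *Cyp9f2* (r = 0.989) and *exp* (r = 0.988). *dpn* was followed by *eIF4EHP*, a cap-binding translational repressor (r = 0.997), *AsnRS* (r = 0.987) and *emc*, an HLH protein (r = 0.986). For *mira* they were *p* (r = 0.993), *fipi* (r = 0.991) and *Mob2* (r = 0.981). *repo* was matched by *nerfin-1*, a zinc finger gene of nascent neurons (r = 0.993), *metro* (r = 0.983) and *Ror* (r = 0.969), and *repo* also correlated at r = 0.89 with the neuronal list. *moody* was matched by *Jra*, the *Drosophila* Jun (r = 0.984), *bero* (r = 0.977) and *Mlc1*, a muscle myosin light chain (r = 0.976). For *nrv2*, with its narrow range, the closest were *Galphaq* (r = 0.897), *mRpL27* (r = 0.852) and *hui* (r = 0.823).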

How the data were processed

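RNA of eye-antennal discs was labelled and hybridised to Affymetrix GeneChip Drosophila Genome 2.0 arrays, 3 a group. The authors deposited GCRMA values on the log2 scale, 1 column an array, with background correction, normalization and probe set summary already done; the GCRMA version and which arrays were normalized together are not given in the sources used here. The submitters' processing notes name GCRMA. Of 18952 probe sets, 183 array controls were left out, and 13647 of the rest had 1 gene symbol in the platform annotation, which can be old. Probe sets of some genes, the overexpressed ones other than *bsk* among them, carry no name here and were not analysed as genes.

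Differences were fitted in limma 3.58.1 under R 4.3.3 (lmFit, eBayes) with Benjamini-Hochberg adjustment over all 18769 probe sets. The fit held 9 arrays for *ab*, *scrib-*+*ab* and control, 12 arrays for comparisons among the Ras and Notch tumours, and all 21 arrays for those tumours against the control. Calls needed an adjusted p under 0.05 and a log2 difference over 1. The fits were tested on simulated data. The 6 genes and all lists were chosen with earlier results of these data known. A listed gene with several probe sets was read from that with the highest mean over all 21 arrays. Named besides the 6 were listed genes and, for each gene, the 3 symbols closest by r over group means; symbols made of CG or CR numbers were left out. No block was used. Residuals of same-numbered arrays correlated above 0.1 in all 3 pairs for *scrib-*+*RasACT* and the control alone (r = 0.14, 0.14 and 0.21), which the labels do not explain, and there the block changed no call. No 2 arrays of a group were identical. Arrays give no counts, so the precision is limited by their number. Alternatives were trend and robust eBayes, array weights, a replicate block, other sets of arrays, a further quantile normalization, a filter and a floor on low values, and leaving out each array.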

Additional observations from a re-analysis of the deposited data

Results flagged for a closer look

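The JNK effect, the signal without *bskDN* minus that with it, differed between Ras and Notch tumours in 4 of the 6 genes by the interaction term in limma. The Ras effect minus the Notch effect was -1.71 for *insc*, whose call rests on the edge of the threshold, -2.23 for *mira*, -2.40 for *repo* and -2.93 for *moody* on the log2 scale. For *insc* both effects were upward (2.27 with *RasACT* and 3.98 with *NACT*). *mira* was lower with JNK active in Ras tumours (-1.35) and not called in Notch tumours (0.88). *moody* and *repo* were called in Notch tumours alone. The neuronal list (7 of 8 genes lower) and the glial subtype and transport list (4 of 9) had the same direction in this interaction. Their part in the values of *mira*, *repo* and *moody* was not tested.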

How the results depend on the processing

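Of 930 values of a gene in a comparison under an alternative, 861 kept their direction and call, 40 lost the call, 20 gained it and 9 changed sign, all 9 being small differences that were called in neither setting. With the replicate block the number of genes called was 1 in *ab* against control (2 without the block; *mira* at adjusted p = 0.0533), 1 in *scrib-*+*RasACT* against its *bskDN* group (3 without; *insc* at 0.0699 and *mira* at 0.106), 1 in *scrib-*+*RasACT* against *scrib-*+*NACT* (2 without; *repo* at 0.0914) and 2 in the interaction (4 without; *insc* at 0.348 and *mira* at 0.116), and *repo* in *scrib-*+*ab* against control was lost (0.0653). The shared numbers are not known to pair these samples. The block changed no other call among the 6 genes. With the arrays of the compared groups alone the number was 0 in *scrib-*+*RasACT* against control (1 in the full fit), 1 in *scrib-*+*NACT* against control (2), 1 in *scrib-*+*RasACT* against its *bskDN* group (3) and 1 in *scrib-*+*RasACT* against *scrib-*+*NACT* (2). In *scrib-*+*ab* against *ab* (1 in the full fit) it was 3 with all 21 arrays, 3 with low values left out and 2 after quantile normalization, and array weights gave 1 in *scrib-*+*RasACT*+*bskDN* against control (0). Fits on fewer arrays have fewer degrees of freedom; for the others the cause was not tested.

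Leaving out 1 array gave 1 to 3 genes in *scrib-*+*ab* against *ab*, 1 to 2 in *scrib-*+*RasACT* against control, 1 to 2 in *scrib-*+*NACT* against control, 0 to 1 in *scrib-*+*RasACT*+*bskDN* against control and 1 to 2 in *scrib-*+*RasACT* against *scrib-*+*NACT*. Signs changed for *moody* in *scrib-*+*ab* against control (-0.10 to 0.16), *nrv2* in *scrib-*+*NACT*+*bskDN* against control (-0.044 to 0.21), *insc* in *scrib-*+*RasACT* against *scrib-*+*NACT* (-0.44 to 0.16) and *nrv2* in the interaction (-0.25 to 0.0085). The *insc* interaction was also lost with trend and robust eBayes (adjusted p = 0.0615), after quantile normalization (0.19) and with low values raised to 5 (0.0976). The mean of several probe sets was not run, since each gene has 1.

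The number of all probe sets called moved too. In *scrib-*+*ab* against *ab*, 803 were called, but 250 with trend and robust eBayes, 467 with array weights, 477 with the block and 461 with the compared arrays alone. In *scrib-*+*RasACT* against *scrib-*+*NACT* the 369 became 654 with array weights, 65 with the block, 84 with the compared arrays alone and 600 without *scrib-*+*RasACT* replicate 3, and the share that was higher went from 60.4% to between 46% and 76.9%. In *scrib-*+*RasACT* the 1207 called against control became 625 with the compared arrays alone, and the 792 called against its *bskDN* group became 430 with the block and 424 with the compared arrays alone. The 1008 called in *scrib-*+*NACT* against its *bskDN* group became 538 with the block, and the 847 of the interaction 250 with the block and 1291 with array weights. Without *scrib-*+*RasACT* replicate 1 the share higher was 71.3% in *scrib-*+*RasACT* against *scrib-*+*NACT*. Quantile normalization moved the share higher from 59.7% to 48.3% in *ab* against control, from 42.6% to 53% in *scrib-*+*ab* against *ab*, from 27.6% to 41.3% in *scrib-*+*NACT*+*bskDN* against control and from 27% to 44% in the interaction.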

Other observations

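Control replicate 1 had *gcm*, the embryonic glial determinant, at 6.44, where the other control arrays had 2.30 and 2.22, while *repo* was at 8.88, 8.55 and 8.58 on the same arrays. In *scrib-*+*RasACT*+*bskDN* the fat body list varied more between arrays than the 6 genes did. Its array means ran from 4.87 to 11.08, those of the neuroblast genes from 8.22 to 8.42 and those of the glial genes from 10.14 to 10.16. This did not hold in every group. In *scrib-*+*NACT*+*bskDN* the fat body means ran from 4.93 to 5.09 and those of the neuroblast genes from 7.48 to 7.84.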
